A study of Mus musculus with 4 samples.

Results

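AMPA and kainate receptor subunits were described over coronal sections of the mouse brain at postnatal day 21 (P21). The members were the 9 genes that encode the pore-forming subunits, 4 Gria genes (AMPA) and 5 Grik genes (kainate), taken by symbol from the 19465 features of the deposited count matrices, and all 9 were measured. The sections came from male wild-type C57BL/6J offspring whose dams, at least 8 weeks old at assignment, ate folic acid (FA) at 2 mg/kg (MF, "median folate") or 20 mg/kg (HF, "high folate") from 2 weeks before mating through pregnancy and lactation. Each diet had 2 sections. The methods call them biological replicates. Since the labels name no litters, p-values measure only the spread between these sections, in levels for diets and in area differences for areas. Visium-FFPE was used, in which probe pairs hybridize to fixed tissue sections on a slide of barcoded spots, and each spot holds RNA of several cells.

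Glutamate, the main excitatory transmitter of the brain, opens ionotropic receptors built of 4 subunits around a pore. AMPA receptors carry most fast excitatory transmission and combine the products of Gria1 to Gria4. Kainate receptors combine Grik1, Grik2 and Grik3, the low-affinity subunits, with Grik4 and Grik5, the high-affinity subunits that need a low-affinity partner to form a working channel, and they act on both sides of synapses, best known at the mossy fibre synapses from dentate granule cells to CA3. Editing of 1 pore codon (the Q/R site) by the enzyme Adarb1 makes Gria2, and to a lesser degree Grik1 and Grik2, less permeable to calcium.

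The pore codon is shown for all 9 members because it is the site at which make-up changes how the channel conducts, and because the probe counts below do not read it. The sequences were read from GRCm38.p6 with the RefSeq coding exons, 5′ to 3′ on the coding strand, from 24 bases before the codon to at most 24 bases after it within the same exon, with the Q/R codon in capitals.
Gria1 (chr11:57243070-57243119, plus strand, coding exon 11 of 16): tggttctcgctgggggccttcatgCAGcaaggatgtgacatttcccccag
Gria2 (chr3:80706888-80706937, minus strand, coding exon 11 of 16): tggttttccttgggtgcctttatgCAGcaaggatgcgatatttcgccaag
Gria3 (chrX:41610241-41610290, plus strand, coding exon 11 of 15): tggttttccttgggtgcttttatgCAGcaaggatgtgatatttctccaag
Gria4 (chr9:4464114-4464163, minus strand, coding exon 11 of 16): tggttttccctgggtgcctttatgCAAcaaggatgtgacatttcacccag
Grik1 (chr16:87940538-87940568, minus strand, coding exon 12 of 17): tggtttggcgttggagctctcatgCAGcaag
Grik2 (chr10:49244325-49244355, minus strand, coding exon 12 of 16): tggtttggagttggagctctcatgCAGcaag
Grik3 (chr4:125691183-125691213, plus strand, coding exon 12 of 16): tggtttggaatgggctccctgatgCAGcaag
Grik4 (chr9:42547599-42547649, minus strand, coding exon 14 of 19): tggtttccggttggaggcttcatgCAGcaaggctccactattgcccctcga
Grik5 (chr7:25022473-25022523, minus strand, coding exon 14 of 19): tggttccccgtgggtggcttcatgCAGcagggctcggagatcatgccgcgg
The codon was CAG in 8 members and CAA in Gria4. Over the 31 bases that all 9 windows share, Gria3 matched Gria2 at 30 bases, Gria4 at 29 and Gria1 at 26, and Grik1 matched Grik2 at 30. Grik3, Grik4 and Grik5 matched Grik2 at 25, 25 and 21 bases. In Grik1, Grik2 and Grik3 the exon ended 4 bases after the codon.

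Areas were drawn by clustering the spots of the 4 sections on other genes, with the 9 members and the other listed receptor genes left out, and named from marker lists. They comprised 10 regions, among them cerebral cortex (CTX), striatum (STR), white matter (WM), hypothalamus (HY), thalamus (TH) and hippocampus (HP), and 18 sub-areas, of which the layers of CTX and HP and relay and midline TH were drawn within their region, while the thalamic reticular nucleus (RT) was a cluster of the whole section named from its own markers. Of 13452 spots kept, 11596 carried a region name. Each of the 18 sub-areas was found in all sections, from 9 to 13 spots in choroid plexus (CP) to 539 to 660 in HY. RT held 105 spots in HF replicate 2 and 40 to 48 in the other sections. In TH, 1426 of 2643 spots carried no nucleus name, and some spots of the HP neuropil cluster lay along the cortical surface. Relay TH joined a cluster of 286 spots, with 6 relay markers among its 50 leading genes but 0 among the first 10, and another of 256 spots, with 3 and 2. Clusters of 252 and 191 spots were nearest to relay TH, with 2 and 1 markers, too few for a name. Levels are given as UMIs of a gene scaled to the total UMIs of an area (CPM), mean ± SD over the 4 sections, and each gene is compared between areas only, since probe sets differ in efficiency and UMIs of different genes cannot be set against each other as molecules. Total UMIs ranged from 34983708 to 90098381 a section, with the highest total in MF replicate 1. In these mixed spots, fewer cells of a type and less RNA per cell cannot be told apart.

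CP, a secretory epithelium, gave the level that the members reached where few neurons lie. All 9 members were lower in CP than in the mean of the other sub-areas (edgeR quasi-likelihood test, adjusted p under 0.05 and at least 1.5-fold), where 19.5% of all features were lower in CP by that rule. CP still held 190 ± 35.7 CPM of Gria1, 128 ± 32.3 of Grik5 and 10.98 ± 8.26 of Grik1. Whether these UMIs came from neighbouring tissue or from free RNA was not tested, and levels elsewhere that overlapped those of CP are named as such below.

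The 9 subunits did not share a single map, although some were alike, such as Gria2 and Grik5. Most of the contrast lay in HP, the cortical layers and TH. Of 162 member-by-sub-area tests against the mean of the other sub-areas, 68 passed, 32 of them higher, and over the 10 regions 34 of 90 passed, 19 of them higher. Over all features 17.7% of sub-area tests and 19.1% of region tests passed by the same rule (edgeR, section as a block, adjusted p under 0.05 and at least 1.5-fold). With section as a block, the error of these tests is the spread of area differences from section to section, pooled over the areas of 4 sections. Because areas were drawn from the other genes of the same spots, the tests do not show that the areas themselves are independent classes. Moran's I, a deposited score of how far neighbouring spots are alike, was 0.306 to 0.407 for Gria1, with 1.34 to 1.53% of features above it in a section. For Gria4 it was 0.0517 to 0.100, with 13.1 to 19.7% of features above it.

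**Figure D1:**
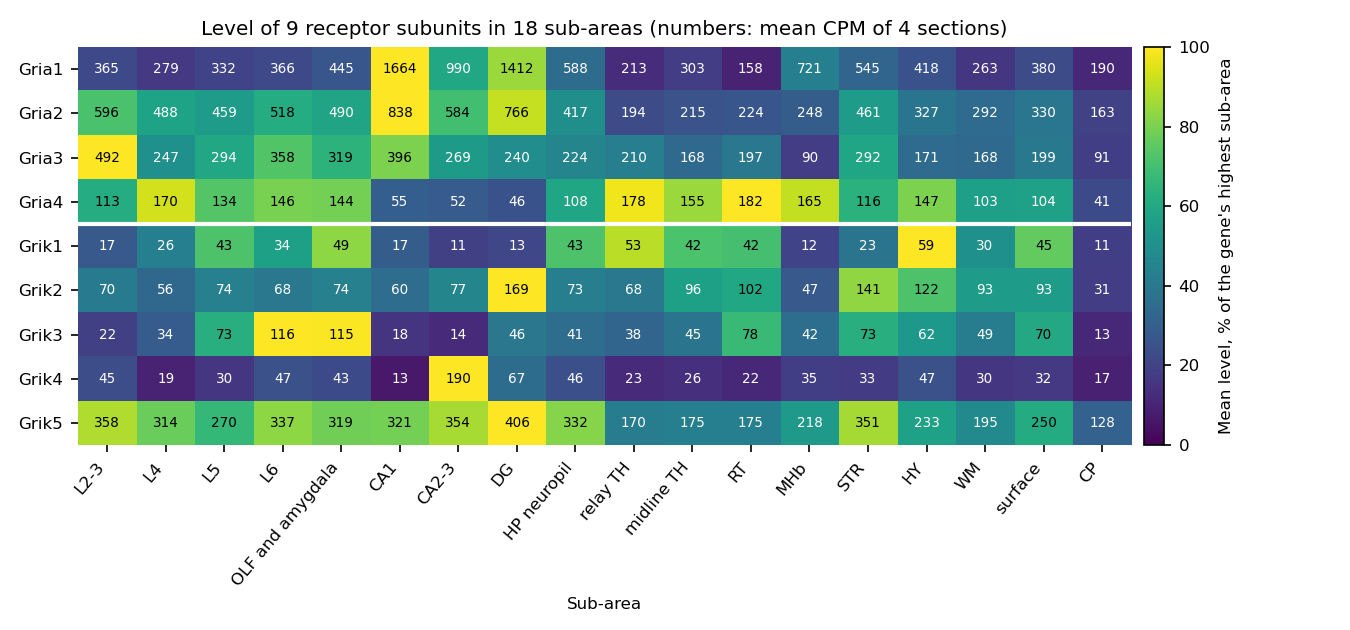
Mean CPM of each subunit (rows, numbers in the cells) in 18 sub-areas (columns) over 4 sections, coloured as a percent of the gene's own highest sub-area. Gria1 reached 1664 CPM in CA1 and Grik4 190 CPM in CA2-3, whereas Gria4 ran the other way, from 46 CPM in DG to 182 CPM in RT.

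Among the AMPA subunits, Gria1, whose product is needed for much of the plasticity of hippocampal synapses, was highest in the pyramidal layer of CA1. It measured 1504 and 1680 CPM in the MF sections and 1692 and 1781 CPM in the HF sections there, against 1412 ± 95.3 CPM in the dentate gyrus (DG) and 990 ± 45.6 CPM in CA2-3. The 3 cell layers of HP thus stood above all other sub-areas in every section. The log2 ratio of CA1 to the mean of the other sub-areas was 2.17 ± 0.05 (SE; edgeR adjusted p = 6.62e-60). Medial habenula (MHb), a cholinergic and peptidergic nucleus beside the ventricle, came next with 721 ± 36.0 CPM of Gria1 (log2 ratio 0.68 ± 0.06, edgeR adjusted p = 7.57e-16), before the HP neuropil with 588 ± 36.1 CPM and STR with 545 ± 27.2 CPM. Lowest were RT with 158 ± 51.6 CPM and relay TH with 213 ± 35.7 CPM, both overlapping the 154 to 224 CPM of CP. The mean in CA1 was 10.5 times that in RT. Ordered by mean, 7 of the 17 steps from one sub-area to the next had no overlap between sections for Gria1, among them DG over CA2-3 and CA2-3 over MHb.

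Gria2, which sets the calcium permeability of AMPA receptors, spanned a ratio of 4.31 between its highest and its lowest sub-area apart from CP, against 10.5 for Gria1, 5.49 for Gria3 and 3.96 for Gria4. CA1 held 838 ± 53.9 CPM, with 830 and 909 CPM in the MF sections and 778 and 837 CPM in the HF sections, and DG 766 ± 55.0 CPM. Upper cortex (L2-3) followed with 596.5 ± 48.5 CPM of Gria2 and CA2-3 with 584 ± 43.1 CPM. All 3 thalamic sub-areas were lower than the mean of the others, with log2 ratios of -0.99 ± 0.06 in relay TH, -0.87 ± 0.06 in midline TH and -0.77 ± 0.06 in RT (edgeR adjusted p = 3.93e-28, 2.21e-25 and 3.24e-19). Sections of relay TH and RT overlapped the 130 to 198 CPM of Gria2 in CP. MHb, high in Gria1, was low in Gria2 at 248 ± 22.4 CPM (log2 ratio -0.75 ± 0.08, edgeR adjusted p = 1.87e-14).

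Gria3, an X-linked subunit, was the one AMPA member with its highest level in CTX. L2-3 measured 442 and 476 CPM in the MF sections and 510 and 540 CPM in the HF sections, and the second sub-area, CA1, 339 and 388 against 431 and 424 CPM. The lowest L2-3 section stood above the highest CA1 section, but the fitted log2 difference of 0.25 ± 0.08 was under the 1.5-fold asked for (edgeR adjusted p = 0.0132). Within CTX, L4 held 247 ± 18.6 CPM of Gria3, about the level of DG (240 ± 21.1 CPM), while L6 rose again to 358 ± 9.29 CPM (log2 ratio to the mean of the others 0.74 ± 0.05, edgeR adjusted p = 8.26e-24). MHb, at 89.7 ± 17.9 CPM, lay within the range of CP.

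Gria4, whose product forms receptors with fast kinetics, showed the inverse arrangement in HP. It was lower in DG (46.1 ± 8.88 CPM), CA2-3 (52.5 ± 6.87 CPM) and CA1 (54.6 ± 17.9 CPM) than in the mean of the other sub-areas, with log2 ratios of -1.29 ± 0.12, -0.96 ± 0.11 and -0.95 ± 0.10 (edgeR adjusted p = 3.52e-17, 1.44e-12 and 7.42e-13), and all 3 layers overlapped the 34.9 to 57.2 CPM of CP. RT held 169 and 188 CPM in the MF sections and 193 and 178 CPM in the HF sections, relay TH 178 ± 15.6 CPM and L4, the cortical layer that receives relay input, 170 ± 8.45 CPM. These 3 sub-areas were higher for Gria4 (log2 ratios 0.72 ± 0.07, 0.79 ± 0.06 and 0.71 ± 0.06; edgeR adjusted p = 7.71e-16, 9.57e-22 and 5.22e-20). Their order was not resolved: sections overlapped, and the fitted log2 difference of RT to relay TH was -0.06 ± 0.08, opposite in sign to the CPM means. One of 17 neighbouring steps of Gria4 had no overlap, that from WM at 103 ± 8.75 CPM down to CA1.

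**Figure D2:**
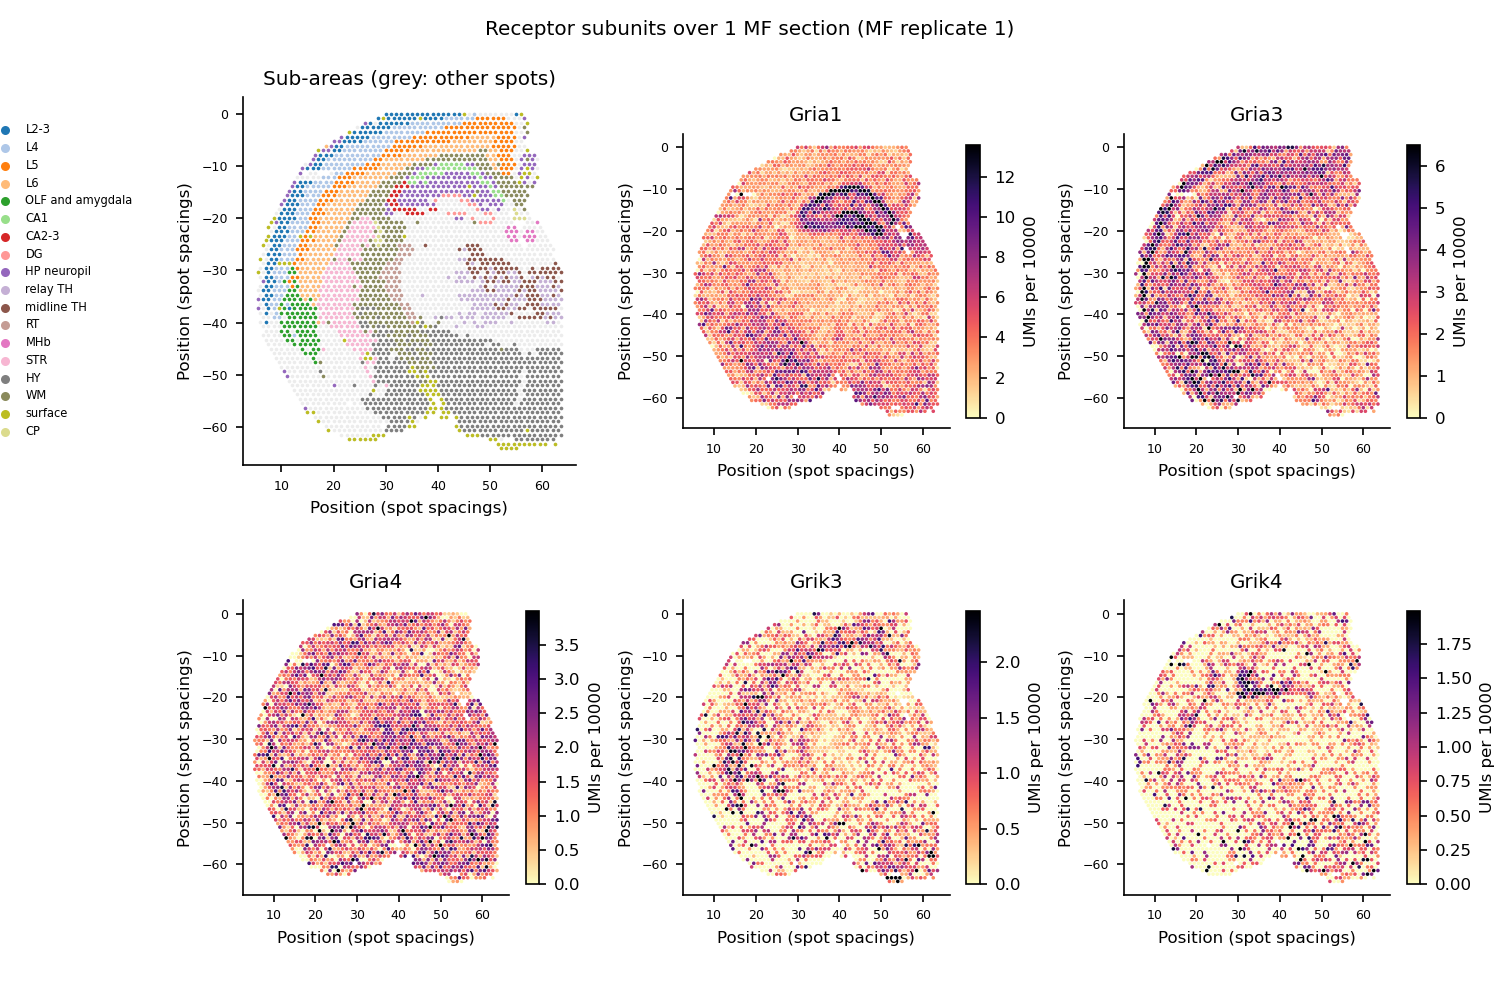
Spots of MF replicate 1 at their array positions (both axes in spot spacings), with the sub-areas in the first panel and UMIs per 10000 of 5 subunits in the others, each colour scale ending at the 99th percentile. Gria1 outlines the cell layers of HP, Grik4 its CA2-3 part, Grik3 the deep cortex, and Gria3 the upper cortex, while Gria4 is low in those HP layers.

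The low-affinity kainate subunits were spread over different areas. Grik1, known from interneurons and from diencephalic nuclei, was highest in HY, with 64.1 and 51.9 CPM in the MF sections and 56.9 and 63.8 CPM in the HF sections (log2 ratio 1.03 ± 0.07, edgeR adjusted p = 2.74e-25). Relay TH was close behind with 53.1 ± 5.80 CPM of Grik1 (log2 ratio 1.04 ± 0.10, edgeR adjusted p = 2.58e-16), and their fitted difference was -0.01 ± 0.10 on the log2 scale, opposite in sign to the CPM means. The cell layers of HP, L2-3, L4 and MHb held 11.2 to 25.5 CPM of Grik1 and overlapped CP. The HP neuropil, by contrast, held 42.6 ± 5.84 CPM (log2 ratio 0.65 ± 0.11, edgeR adjusted p = 1.76e-06).

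Grik2, the low-affinity subunit of the mossy fibre synapse, was highest in DG, where the granule cells that send the mossy fibres lie. DG measured 155 and 180 CPM in the MF sections and 158 and 184 CPM in the HF sections, against 141 ± 12.3 CPM in STR and 122 ± 8.07 CPM in HY. DG and STR were higher for Grik2 than the mean of the others (log2 ratios 1.15 ± 0.08 and 0.84 ± 0.06, edgeR adjusted p = 8.33e-23 and 2.05e-22), and sections of DG and STR overlapped. CA2-3, the target of the mossy fibres, held 76.8 ± 16.1 CPM, near the 73.7 ± 3.76 CPM of L5, and MHb was lowest apart from CP (47.3 ± 12.5 CPM) and overlapped it. None of the 17 neighbouring steps of Grik2 was free of overlap between sections.

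Grik3, a subunit of low glutamate sensitivity, marked deep cortex. L6 measured 121 and 109 CPM in the MF sections and 110 and 123 CPM in the HF sections. The cortical spots named olfactory and amygdalar (OLF and amygdala) measured 115 ± 6.495 CPM. The 2 did not differ beyond their spread (log2 difference 0.02 ± 0.11, edgeR adjusted p = 0.974). The lowest of their sections lay above the highest section of the next sub-area, RT, which held 78.5 ± 17.5 CPM of Grik3. The name OLF and amygdala rested on 3 markers among the 50 leading genes of its cluster, which also included Ccn2, a listed L6 marker. Through the cortical layers the mean ran from 22.1 ± 5.23 CPM in L2-3 and 33.7 ± 4.54 CPM in L4 to 73.2 ± 8.36 CPM in L5 and 116 ± 7.28 CPM in L6. L2-3 was lower (log2 ratio -0.996 ± 0.13) and L5 and L6 higher (0.78 ± 0.08 and 1.52 ± 0.07) than the mean of the other sub-areas (edgeR adjusted p = 7.28e-11, 1.71e-13 and 2.82e-35). In CA1 and CA2-3, 17.8 ± 8.31 and 14.0 ± 6.42 CPM of Grik3 overlapped the CP level, as did L2-3.

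Of the high-affinity subunits, Grik4 had the largest ratio of highest to lowest sub-area of the 9 members. CA2-3 measured 172 and 176 CPM in the MF sections, from 213 and 85 UMIs, and 207 and 202 CPM in the HF sections, from 95 and 170 UMIs. DG, the next sub-area, held 67.2 ± 12.7 CPM of Grik4, and no other named sub-area had a mean above 47.2 CPM. The log2 difference of CA2-3 to DG was 1.74 ± 0.13 (edgeR adjusted p = 1.07e-21), and that of CA2-3 to the mean of the other sub-areas 2.78 ± 0.09 (edgeR adjusted p = 4.07e-48). CA1, the neighbouring pyramidal layer, held 12.6 ± 5.60 CPM, overlapping the 14.7 to 19.3 CPM of CP and the mean in CA2-3 was 15.0 times that in CA1. L4 and RT were also lower for Grik4 than the mean of the others (log2 ratios -0.79 ± 0.10 and -0.75 ± 0.14, edgeR adjusted p = 3.30e-10 and 3.31e-06). Sections of L4 and relay TH overlapped CP.

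Grik5, the widely expressed high-affinity subunit, varied least, with a ratio of 2.38 between DG and relay TH. DG measured 400 and 425 CPM in the MF sections and 403 and 397 CPM in the HF sections, above the 349 to 364 CPM of L2-3 in every section, although the fitted log2 difference was 0.12 ± 0.07 (edgeR adjusted p = 0.154). CA2-3 and DG were higher for Grik5 (log2 ratios 0.66 ± 0.05 and 0.64 ± 0.05, edgeR adjusted p = 4.30e-19 and 3.64e-18). By mean CPM their order was the other way, with 354 ± 17.2 in CA2-3 and 406 ± 12.8 in DG. L2-3, at 358 ± 6.80 CPM, was not called higher. Scaling by total UMIs alone moved the median log2 ratio of all features by -0.19 in CA2-3 and 0.03 in DG. Relay TH, midline TH and RT were lower (-0.61 ± 0.05, -0.60 ± 0.05 and -0.63 ± 0.06, edgeR adjusted p = 2.15e-18, 1.64e-18 and 6.80e-16), and sections of RT and midline TH overlapped the 99.7 to 156 CPM of Grik5 in CP.

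Set against their own second sub-area, 1 of 9 members passed the 1.5-fold rule, Grik4, where 18.6% of all features passed in the same 8 contrasts. The sections of the highest and the second sub-area did not overlap for 3 members (Gria3, Grik4 and Grik5), and for 22% of the features with at least 10 CPM in a sub-area. Gria1, Gria2, Gria3 and Grik2 differed between their first and second sub-area by 0.25 to 0.37 on the log2 scale (edgeR adjusted p = 2.1e-05, 0.00369, 0.0132 and 0.00815), under 1.5-fold. For Gria4, Grik1, Grik3 and Grik5 the first and second sub-area did not differ beyond their error (edgeR adjusted p from 0.154 to 0.974).

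Shares within each family show the make-up of the UMIs by area. They depend on the probes of each gene, so only the change of a share from area to area is read, and not the share itself as a part of the receptors. Gria1 took 56.3 ± 1.40% of Gria UMIs in CA1, 57.3 ± 2.34% in DG, 52.3 ± 2.24% in CA2-3 and 58.9 ± 3.20% in MHb, but 23.3 ± 0.68% in L2-3 and 20.4 ± 5.20% in RT. Gria4 ran from 1.87 ± 0.68% in CA1 and 1.87 ± 0.36% in DG to 22.4 ± 0.94% in relay TH and 24.1 ± 3.33% in RT. In L4 the Gria2 share was 41.2 ± 0.63%, and in L2-3 that of Gria3 was 31.4 ± 2.02%. Gria2 kept between 20.2 ± 1.37% (MHb) and 41.2% (L4) of its family over the 18 sub-areas. All Gria UMIs together were 2953 ± 147 CPM in CA1 and 762 ± 62.4 CPM in RT.

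Of the Grik UMIs, Grik5 took 74.9 ± 4.49% in CA1 and 42.0 ± 4.64% in RT. Grik4 took 29.4 ± 2.91% in CA2-3 and 2.99 ± 1.35% in CA1. Grik3 took 19.2 ± 0.60% in L6 and 19.2 ± 0.64% in OLF and amygdala, and 2.19 ± 1.02% in CA2-3. Grik2 ranged from 11.3 ± 1.57% in L6 to 25.2 ± 3.08% in midline TH, with 24.1 ± 1.24% in DG, and Grik1 from 1.72 ± 0.70% in CA2-3 to 15.1 ± 1.89% in relay TH. Grik UMIs together were 702 ± 31.1 CPM in DG and 352 ± 20.4 CPM in relay TH, a narrower span than that of Gria.

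**Figure D3:**
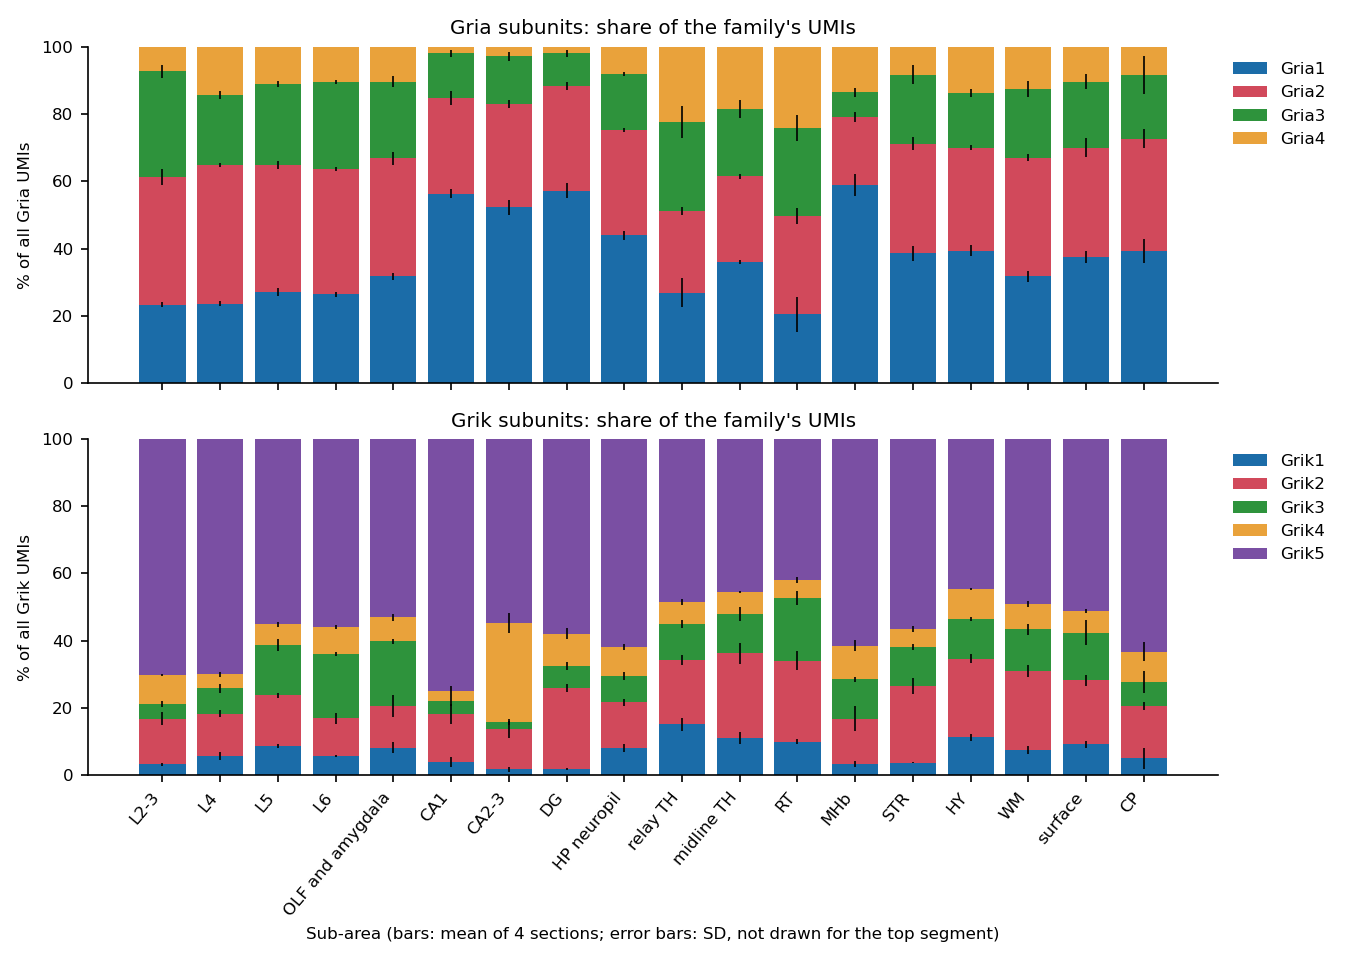
Share of each subunit in the UMIs of its family (percent, y axis) in 18 sub-areas (x axis); bars are means of 4 sections and error bars SD, not drawn for the top segment. Gria1 fills over 50% of the Gria bar in CA1, CA2-3, DG and MHb, Gria4 is widest in RT and relay TH, and Grik4 takes 29.4% of the Grik bar in CA2-3.

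Members were also compared in pattern. Pearson's r of mean log2 CPM over the 18 sub-areas, given as a description since these areas share libraries and depth, was 0.94 between Gria2 and Grik5, 0.79 between Gria2 and Gria3 and 0.74 between Gria1 and Gria2. It was -0.52 between Gria1 and Gria4 and 0.70 between Gria4 and Grik1. Of 12172 features with at least 10 CPM in a sub-area, those most like a member were Scn3b, Lmo1 and Abl2 for Gria1 (r = 0.96, 0.93 and 0.91), Shisa7, Slitrk5 and Phyhip for Gria2 (0.98, 0.97 and 0.97), and Twf2, Extl1 and Sirpa for Gria3 (0.96, 0.94 and 0.93). For Gria4 they were Rcan2, Dpp10 and Dynll2 (0.98, 0.93 and 0.90). Kainate subunits were nearest to Pink1 (Grik1, 0.92), Zcchc4 (Grik2, 0.89), Slc35f1 (Grik3, 0.90), Nr2c2ap (Grik4, 0.84) and Jph4 (Grik5, 0.96). Shisa7, listed here among the AMPA auxiliary subunits, was the nearest of all features to Gria2.

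Proteins that bind these receptors had area patterns of their own. Auxiliary AMPA subunits set gating and delivery of the receptor, and of 16 listed, 9 were higher and 2 lower in DG, 8 higher and 5 lower in CA1, 7 higher and 3 lower in relay TH, 8 higher and 6 lower in CA2-3, and 2 higher and 8 lower in both RT and MHb than in the mean of the other sub-areas. Of all features, 28% were called in DG, 24.5% in CA1, 17.1% in relay TH, 27.2% in CA2-3, 15.5% in RT and 22.2% in MHb, either way. Cacng8 (TARP gamma-8), the HP form, measured 905 ± 89.7 CPM in CA1 (log2 ratio 2.55 ± 0.06, edgeR adjusted p = 4.03e-57). Cacng3 was highest in L2-3 at 591 ± 38.3 CPM (2.23 ± 0.05, edgeR adjusted p = 3.62e-58). Shisa6, which stabilizes synaptic receptors, reached 364 ± 38.8 CPM in CA2-3 (2.97 ± 0.09, edgeR adjusted p = 3.10e-49).

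Of the 4 listed kainate partners, 2 were higher and 1 lower in both DG and CA2-3, 1 higher and 3 lower in both RT and CP, and none higher and 2 lower in relay TH. Of all features, 28% were called in DG, 27.2% in CA2-3, 15.5% in RT, 40.8% in CP and 17.1% in relay TH, either way. Neto1, an auxiliary subunit of kainate receptors, was highest in CA2-3 with 327 ± 45.2 CPM (log2 ratio 2.37 ± 0.08, edgeR adjusted p = 4.28e-46), the same sub-area as Grik4. C1ql2 and C1ql3, secreted by granule cells and known to gather kainate receptors at mossy fibre synapses, were highest in DG with 558 ± 31.4 and 373 ± 34.7 CPM (5.52 ± 0.10 and 2.54 ± 0.08, edgeR adjusted p = 3.32e-67 and 1.21e-46). C1ql2 was thus the listed gene with the largest ratio.

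Among 16 scaffold and trafficking genes, 8 were higher and none lower in L2-3, where 15.8% of all features were called, and 6 were higher and 2 lower in both CA1 and CA2-3. In relay TH none was higher and 6 were lower, in MHb 4 were higher and 7 lower, and in HY 1 was higher and 6 were lower, where 16% of all features were called. The shares of all features called in CA1, CA2-3, relay TH and MHb were 24.5%, 27.2%, 17.1% and 22.2%. The neuronal pentraxin genes Nptx1 (764 ± 61.5 CPM) and Nptxr (1091 ± 183 CPM), whose products cluster AMPA receptors, were highest in CA2-3 (2.72 ± 0.06 and 2.08 ± 0.06, edgeR adjusted p = 3.77e-58 and 2.66e-51). Grip2, a PDZ scaffold, was highest in MHb at 141 ± 15.8 CPM (2.08 ± 0.12, edgeR adjusted p = 5.56e-29). The editing enzyme Adarb1 was highest in relay TH at 946 ± 143 CPM (2.30 ± 0.05, edgeR adjusted p = 1.07e-58), where Gria2 was at its lowest apart from CP. Adarb2 had its highest level in the same sub-area, 136 ± 25.5 CPM (2.22 ± 0.11, edgeR adjusted p = 9.62e-34). Editing itself was not measured.

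The second comparison, HF against MF, asks whether a maternal diet with excess FA moved the subunits. Over the whole section no member was called at an adjusted p under 0.05 and at least 1.2-fold, where 0% of the 14971 features tested were called (edgeR), and no member had an unadjusted p under 0.05, against 6.81% of all features. DESeq2 called 16 features and no member. Gria1 measured 422 and 423 CPM in the MF sections and 425 and 436 CPM in the HF sections, a log2 fold change of 0.02 ± 0.07. Gria4 measured 142 and 132 against 129 and 125 CPM (-0.12 ± 0.08), Grik1 42.9 and 42.9 against 40.3 and 38.9 CPM (-0.13 ± 0.07), and Gria3 231 and 231 against 243 and 241 CPM (0.06 ± 0.07). The diets did not overlap for these 4 of 9 members, as for 38.5% of all features with at least 10 CPM on average, and each difference was under 2 SE. Taken 2 SE either side, the intervals of the 9 members reached from -0.27 (Gria4 and Grik1) to 0.20 (Gria3) on the log2 scale. With 2 sections a diet, an exact permutation test of a single value cannot give a p below 0.333.

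By area, no member was called in any of the 10 regions (86 tests) or 18 sub-areas (155 tests), where 0.0585% and 0.101% of all tests were called. STR, HY, MHb, WM, CP and surface hold the same spots as regions and as sub-areas, so their tests are counted at both levels. An unadjusted p under 0.05 was met in 3.49% and 3.23% of member tests and in 6.22% and 5.90% of all tests. DESeq2 called no member either. The lowest adjusted p of a member was 0.487 (edgeR, Grik5 in CP). Grik4 in CA2-3, its highest sub-area, was 172 and 176 CPM in MF and 207 and 202 CPM in HF, with no overlap, yet the fitted log2 fold change was 0.24 ± 0.16 (edgeR adjusted p = 0.898). In STR, Grik4 was 28.3 and 24.7 CPM in MF and 37.2 and 40.5 CPM in HF (0.54 ± 0.19, edgeR adjusted p = 0.661), from 33 to 110 UMIs a section. Gria3 in L2-3 had a log2 fold change of 0.21 ± 0.10 (edgeR adjusted p = 0.569), in L4 of 0.20 ± 0.10 (adjusted p = 0.704) and in MHb of -0.49 ± 0.26 (adjusted p = 0.992). Grik3 in CA2-3, at 19.4 and 16.6 CPM in MF and 15.3 and 4.75 CPM in HF, lay at the CP level.

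Some values moved with leaving out an HF section. Without HF replicate 1, the log2 fold change was -0.44 for Grik1 in TH and -0.98 for Grik3 in the surface spots. Without HF replicate 2, it was -0.56 for Gria1 and 0.45 for Gria3 in relay TH. Each of these fits kept 1 HF section, so its error held no spread between HF sections. With all 4 sections none of these values passed the adjusted test. Oligodendrocyte markers (10 listed, all measured, none at 0) summed to 26014 and 27158 CPM in the MF sections and 21569 and 23155 CPM in the HF sections, while neuron markers summed to 7823 and 7574 against 7752 and 7500 CPM. The part of either in the members' values was not tested. Relay TH held 180 spots in HF replicate 1 and 107 to 140 in the other sections. Within it, 1 cluster held 128 spots in HF replicate 1 and 41 to 45 in the others. The part of this spot make-up in the relay TH values was not tested.

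**Figure D4:**
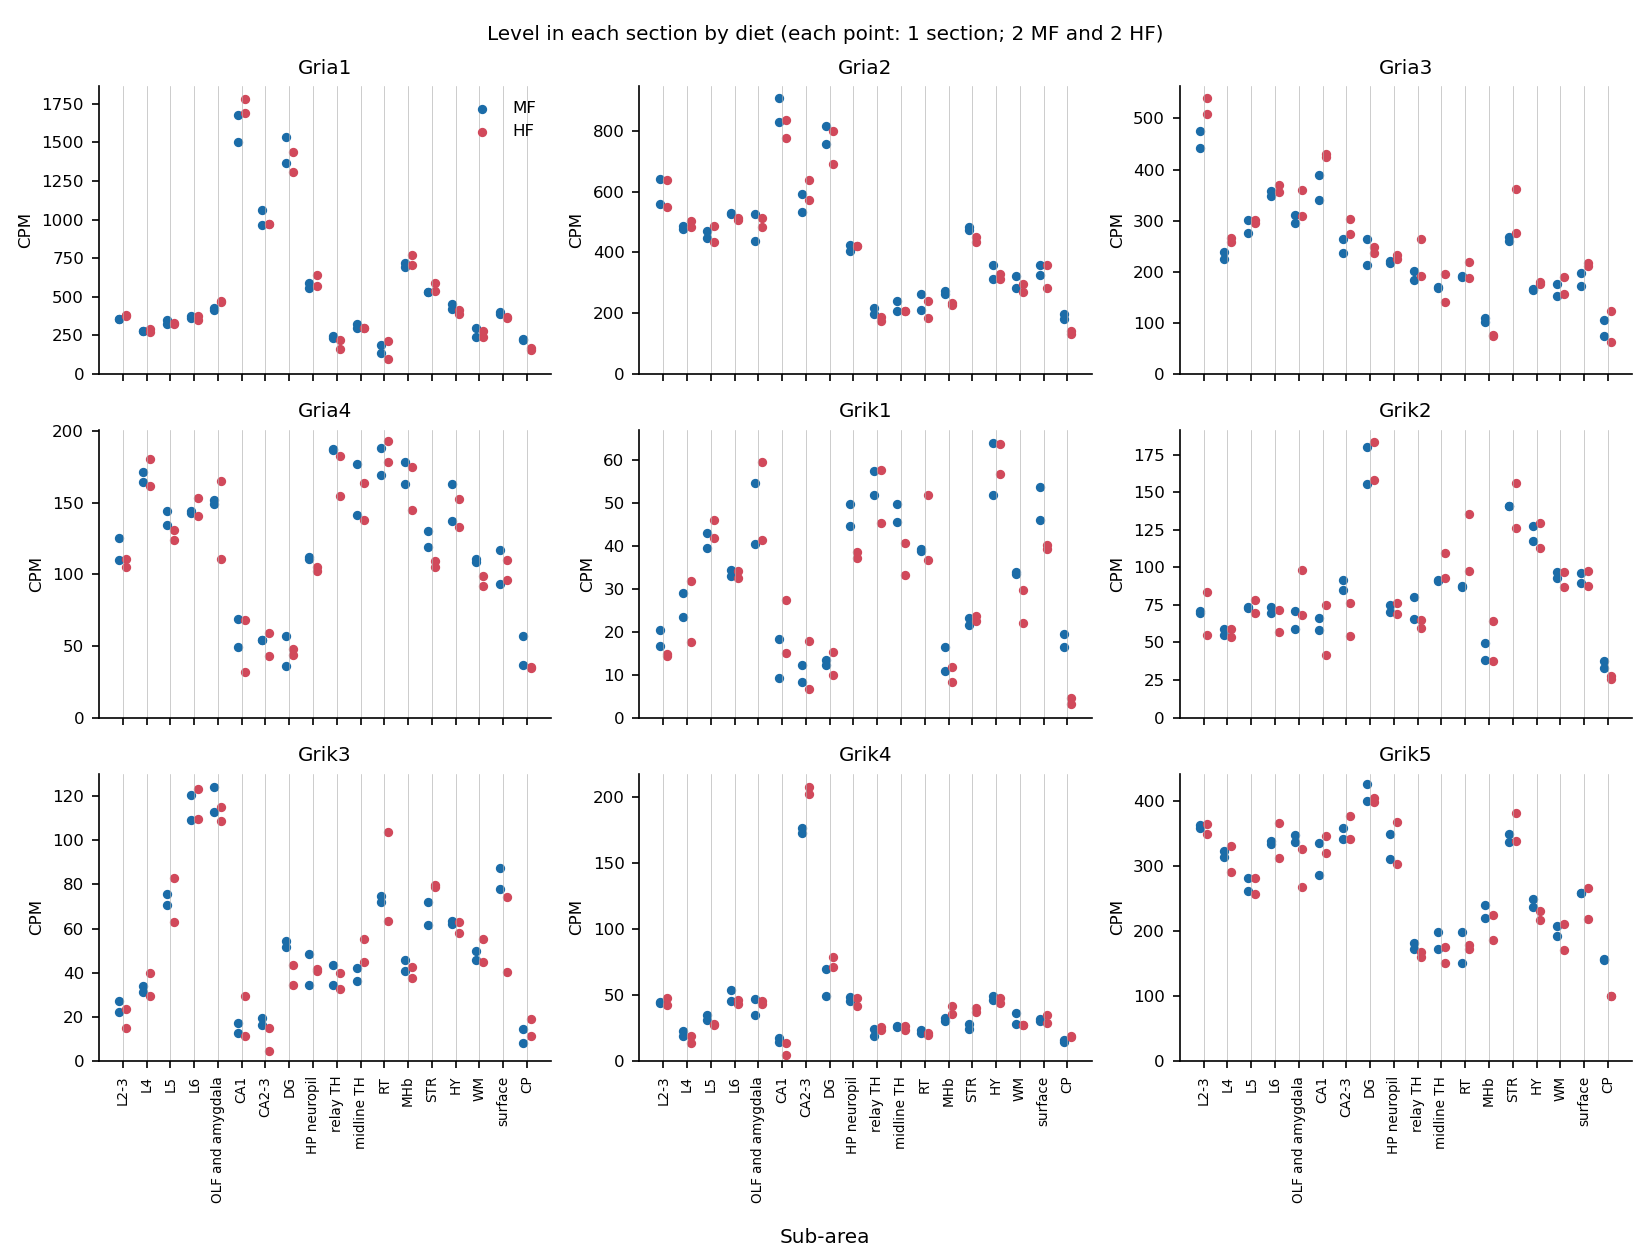
CPM (y axis) of each subunit in each section (points; 2 MF in blue, 2 HF in red) over 18 sub-areas (x axis). The profile over areas is the same in outline in all 4 sections, and the diets lie close to each other next to the differences between areas, as for Grik4 with 172 to 207 CPM in CA2-3 and under 80 CPM elsewhere.

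The region by diet test, which asks whether the HF to MF ratio differed among CTX, HP, TH, HY, STR and WM, called no member, where 0.00733% of 13643 features were called (edgeR). Grik4 had the lowest p, with fold changes spread over 0.85 on the log2 scale (unadjusted p = 0.0023, edgeR adjusted p = 0.536). It was the 1 member with an unadjusted p under 0.05, and DESeq2 called no member. None of the 16 auxiliary AMPA subunits, 4 kainate partners, 16 scaffold and trafficking genes and 3 editing enzymes was called between the diets in the whole section, in a region or in a sub-area. The median log2 fold change over the whole section was -0.02 for the Gria members and -0.03 for the Grik members, 0.003 for the AMPA auxiliary subunits, 0.09 for the kainate partners, -0.03 for the scaffold and trafficking genes, -0.01 for the editing enzymes and 0.002 over all features. An unadjusted p under 0.05 was met by the kainate partners in 1 of 4 tests over the whole section, 7 of 37 over the regions and 8 of 66 over the sub-areas. For the AMPA auxiliary subunits the counts were 1 of 16, 15 of 141 and 21 of 270. Scaffold and trafficking genes met it in 0 of 16, 6 of 150 and 9 of 282, and editing enzymes in 0 of 3, 1 of 27 and 4 of 51. The shares over all features were 6.81%, 6.22% and 5.9%.

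**Figure D5:**
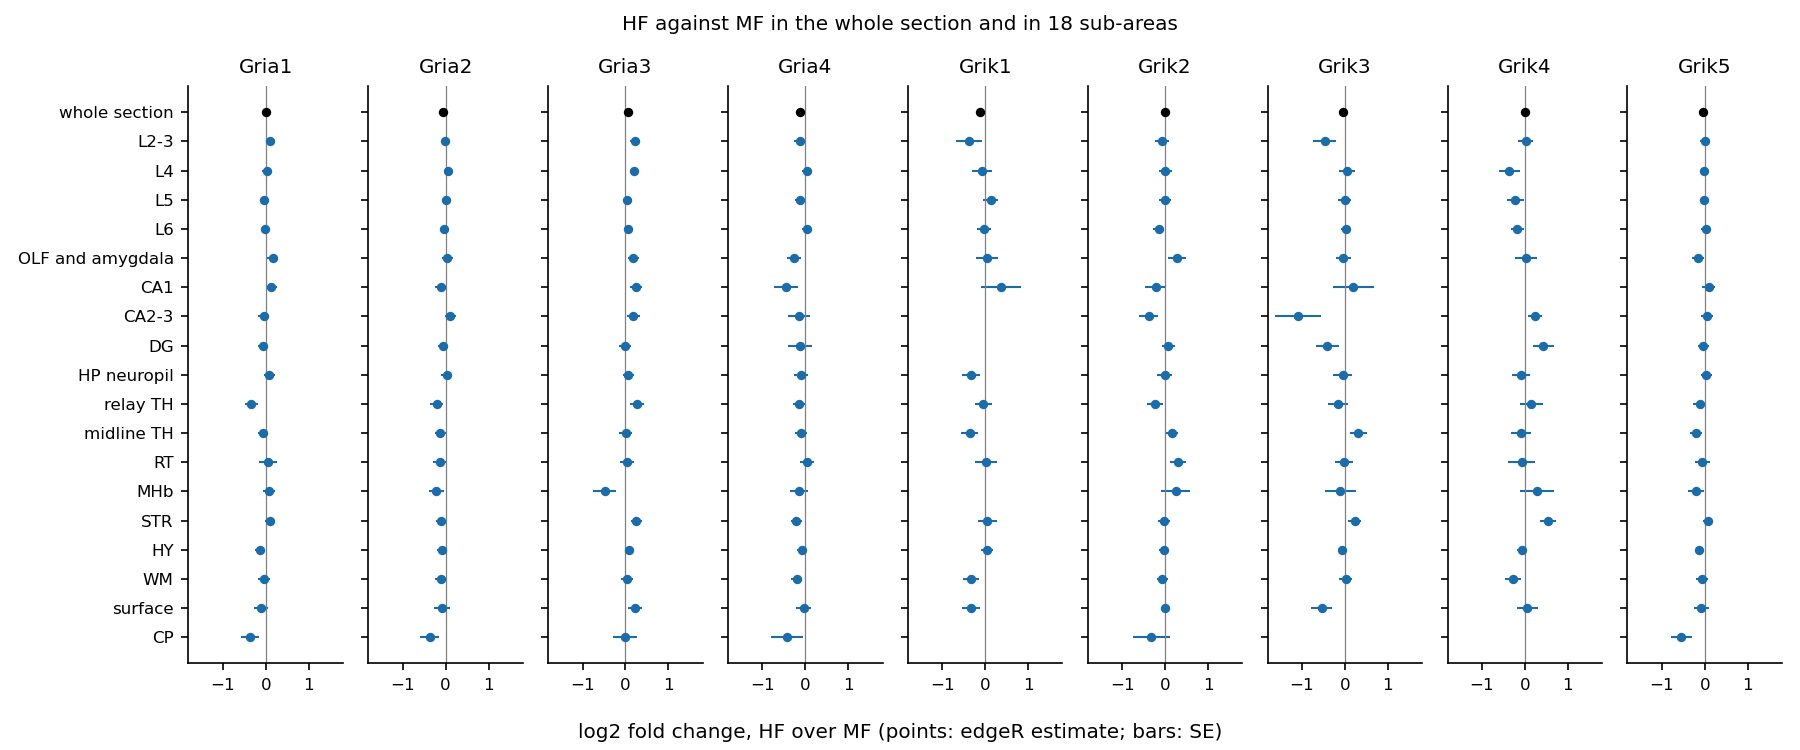
Fitted log2 fold change of HF over MF (x axis, bars SE) for each subunit in the whole section and in the sub-areas where it was tested. Whole-section estimates lie between -0.13 and 0.06, sub-area estimates between -1.10 and 0.54, and none passed the adjusted test.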

How the data were processed

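Visium-FFPE libraries of 4 brain sections were analysed. Space Ranger, Seurat and the build mm10 (GRCm38) are named in the submitters' processing notes. The deposited files hold raw UMI counts per spot and feature, without normalization, and, per the file headers, Moran's I, an unscaled score of spatial autocorrelation. The p-values of that table were not used. A feature's count sums the probes of a gene, so lengths do not enter and edited or spliced forms are not told apart. Nothing in the sources used here assigns sections to slides or litters.

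Spots were kept from 500 UMIs and 250 detected genes upwards. Natural-log CPM of the 2000 most variable genes, scaled within each section, gave 30 principal components and 20 nearest neighbours for Leiden clustering at resolution 1 (leidenalg 0.10.2, scikit-learn 1.9.0). A cluster was named when at least 3 markers of a class were among its 50 leading genes and no other class led it. Doublets were not called, since spots hold several cells.

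UMIs were summed per section and area and tested with edgeR 4.0.16 (TMM, filterByExpr, quasi-likelihood, Benjamini-Hochberg adjustment over all features; R 4.3.3). HF was set against MF at an adjusted p under 0.05 and 1.2-fold, and each area against the mean of the other areas, with section as a block, at 1.5-fold. SE is the log2 estimate divided by the square root of F. DESeq2 1.42.0, library size without TMM, no filter, spots thinned to 5000 UMIs, resolution 0.5, interior spots, a replicate block and leaving out each section were alternatives. Scripts were tested on simulated data. Depth limits low genes: precision follows UMIs, and intervals over 2 sections a diet are wide. The members, gene lists and tests were chosen with earlier results of these data known. Named from the other lists were genes called between diets and up to 3 a list with the largest area ratio; likeness names 1 to 3 features a member. A further gene list is not reported here.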

Additional observations from a re-analysis of the deposited data

How the results depend on the processing

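Member calls between regions numbered 34 and ranged from 29 to 38, and between sub-areas 68, from 58 to 71, the lowest with spots thinned to 5000 UMIs; 52 of the 68 were shared with that setting and 50 with interior spots. Of the sub-area calls 32 were higher, against 35 of 58 with thinned spots and 43 of 68 with interior spots. Interior spots left 9 regions and 81 member tests, against 10 and 90, so the mean of the other regions was taken over another set. With them the log2 ratio of Grik3 in STR moved from 0.72 to 2.1 and that of Grik4 in HP from 1.31 to 2.62. The cause of these shifts was not tested. Each member kept the direction of its ratio in its highest area. Grik5 in DG fell under 1.5-fold with thinned spots (0.43), and Gria4 in MHb, its highest region, lost its call with thinned spots (0.64), at resolution 0.5 (0.49), with interior spots (0.90) and without HF replicate 2 (0.57). Library size in place of TMM moved the median of all features by -0.19 (CA2-3) to 0.19 (surface) in log2 units. At resolution 0.5, L4, midline TH and the HP neuropil had no cluster and no value.

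Member calls between HF and MF stayed at 0 in all settings over the whole section and for the region by diet term, and ranged from 0 to 2 over the regions and over the sub-areas when each section was left out in turn. A replicate block (MF 1 with HF 1, MF 2 with HF 2) also gave 0 member calls at each level, with 0, 231 and 241 calls over all features for the whole section, regions and sub-areas. Same-numbered sections deviated in opposite ways (r = -0.165 over features), and the crossed pairing, added after the data were seen, gave 11, 269 and 312 calls and no member. Near-zero whole-section log2 fold changes turned sign: Grik2 without the filter (-0.001), Grik3 with thinned spots (0.019), and with a section left out Gria1 (-0.018 to 0.049), Gria2 (-0.131 to 0.003), Grik2 (-0.096 to 0.098), Grik3 (-0.097 to 0.027), Grik4 (-0.056 to 0.082) and Grik5 (-0.156 to 0.079). The cause was not tested. Over all features, calls for the whole section, regions and sub-areas (0, 64 and 191) became 16, 54 and 48 with DESeq2, 5, 442 and 492 without the filter, 1, 59 and 104 with thinned spots, 1166, 3608 and 2495 without HF replicate 1, 840, 1971 and 1156 without HF replicate 2, 0, 36 and 120 without MF replicate 1, and 1, 114 and 288 without MF replicate 2. The region by diet term went from 1 call to 180 without the filter, 2 with DESeq2 or at resolution 0.5, 0 without either MF section, and 251 and 30 without HF replicates 1 and 2. Area calls over all features (25851 and 40388) fell to 16237 and 26541 with thinned spots. In the settings that left out a section, 1 diet had 1 section, so the error came from the other diet alone. At 2 sections a diet, members with few UMIs, such as Grik1 and Grik3 in the HP layers, have little precision.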

Other observations

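Spots that the marker rule left without a sub-area name had receptor profiles of their own, described here by the genes that led their clusters. Within HP, 67 spots led by Igfbpl1 and Sox11, genes of immature neurons, held 1189 CPM of Gria1, 144 CPM of Grik2 and 88.5 CPM of Grik4. Their nearest class was DG, with 2 of the 3 markers that a name required, so the named DG leaves these spots out. A second HP cluster of 63 spots, led by Cpne9 and Kctd4, held 1007 CPM of Gria1 and 100 CPM of Grik4, the latter with 15.9 ± 3.26% of Grik UMIs. The nearest class of the second cluster was CA2-3, with 2 markers, too few for a name. Both HP clusters thus had mean Grik4 levels above the 67.2 CPM of the named DG spots and below the 190 CPM of the named CA2-3 spots. In CTX, 157 spots led by Tshz2 and Htr2c held 587 CPM of Gria2 and 259 CPM of Gria1, with a Gria2 share of 45.8 ± 1.05%. These are means of 4 sections and were not tested.

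Outside the named regions, 945 spots led by Ccn3 and Lmo3 held 365 CPM of Gria3 and 58.6 CPM of Grik1, the latter near the 59.2 CPM of HY. Their nearest sub-area class was also OLF and amygdala, with 2 markers, too few for a name. Grik3 took 7.69 ± 1.2% of their Grik UMIs, against 19.2 ± 0.64% in the named OLF and amygdala spots. The 654 spots led by Ddn and Camk2a, between 93 and 273 a section, held 341 CPM of Grik5 and 35.9 CPM of Grik3. Their nearest sub-area class was HP neuropil, with 6 markers, but another class led among the first 10 genes. Their median depth was 0.357 of the section median.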
